A study of Mus musculus with 6 samples.

Results

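The endoplasmic reticulum (ER) chaperones and the unfolded protein response were followed through 10 genes, *Hspa5*, *Hsp90b1*, *Dnajb9*, *Calr*, *Canx*, *Pdia3*, *Pdia4*, *Pdia6*, *Herpud1* and *Xbp1*, which were found by exact gene symbol among the 23420 genes of the expression table. All 10 were listed, and all 10 passed the filter on low values. The study asked how gene expression differs between control lungs and lungs that lack mTORC1, a growth-regulating kinase complex of which Raptor (gene *Rptor*) is a part. RNA was taken from whole mouse embryonic lungs at the stage labelled E11.5dpc (days post coitus). Control lungs (genotype Raptorf/+; ShhCre/+) carried 1 floxed *Rptor* allele and mutant lungs (Raptorf/f; ShhCre/+) carried 2, and both groups carried the *Shh* Cre allele, which recombines floxed alleles in the lung epithelium. Each group had 3 libraries, each made from a pool of 3 or 4 lungs. The control is thus itself heterozygous wherever Cre acted, and the pools also hold tissue outside the epithelium.

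Proteins that enter the secretory pathway are folded in the lumen of the ER by Hsp70 and Hsp90 family chaperones, by lectin chaperones that hold immature glycoproteins, and by disulfide isomerases, while proteins that fail to fold are sent back to the cytosol for degradation. When unfolded proteins build up, the sensors IRE1, ATF6 and PERK raise the expression of these chaperones, and this program is called the unfolded protein response. IRE1 splices the mRNA of *Xbp1*, and the factors XBP1 and ATF6 bind short elements in the promoters of chaperone genes. In the developing lung, epithelial cells secrete fluid and later surfactant proteins, and mesenchymal cells secrete collagens, so both rely on this machinery.

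An element known from promoters of ER chaperone genes is the ER stress response element (ERSE), which consists of CCAAT and CCACG with 9 bases of any kind between them. It was searched on both strands, with 2 other elements, ERSE-II (ATTGG and CCACG with 1 base of any kind between them) and the UPR element (UPRE, TGACGTGG), in the 250 bases before the transcript start of the RefSeq promoters (GRCm38.p6). The letters CCACG are common to ERSE and ERSE-II, and the UPRE holds their reverse complement, CGTGG. All 10 genes matched 1 promoter each. An exact ERSE was in 37 of all 32851 promoters (0.113%) and in 5 of the 10, with 2 copies in *Hsp90b1*. The sequences of those 5 genes are shown because they share the exact element. They are written 5′ to 3′ on the strand of the gene, with capitals for the bases that match the fixed letters of the element, and CGTGG before ATTGG marks an element on the opposite strand.
Hspa5, 65 to 47 bases before the start, chr2:34772013-34772055, plus strand: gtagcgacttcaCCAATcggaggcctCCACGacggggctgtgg
Hsp90b1, 212 to 194 bases before the start, chr10:86705626-86705668, minus strand: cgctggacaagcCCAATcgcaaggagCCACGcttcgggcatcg
Hsp90b1, 107 to 89 bases before the start, chr10:86705521-86705563, minus strand: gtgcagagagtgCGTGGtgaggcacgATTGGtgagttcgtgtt
Calr, 162 to 144 bases before the start, chr8:84847063-84847105, minus strand: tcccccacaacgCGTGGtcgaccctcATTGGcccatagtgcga
Canx, 145 to 127 bases before the start, chr11:50325788-50325830, minus strand: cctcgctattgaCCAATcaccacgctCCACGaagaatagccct
Pdia6, 98 to 80 bases before the start, chr12:17266479-17266521, plus strand: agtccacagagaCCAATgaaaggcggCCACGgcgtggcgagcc

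The remaining genes differed in this respect. An ERSE with 1 base off, a form found in 401 of all promoters (1.221%), was in *Pdia3* and *Pdia4* and as a further copy in *Hsp90b1*. *Herpud1* held the only ERSE-II of the set, an element that was in 10 of all promoters (0.03%). No UPRE was found in the 10 windows, against 185 of all promoters (0.563%), and the windows of *Dnajb9* and *Xbp1* held none of these letters. For *Dnajb9*, on the minus strand, the window began at chr12:44210318. The GENCODE M21 annotation starts the gene at 44210326, so that window lay inside the annotated gene. The bases before the GENCODE start of *Dnajb9* were not searched. A match is a description of the letters only, and binding was not measured. The sequences of *Pdia3*, *Pdia4* and *Herpud1* are shown for contrast with the exact elements, with capitals again for matching bases.
Pdia3, 29 to 11 bases before the start, chr2:121413861-121413901, plus strand: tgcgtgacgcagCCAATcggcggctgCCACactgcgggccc
Pdia4, 108 to 90 bases before the start, chr6:47813590-47813632, minus strand: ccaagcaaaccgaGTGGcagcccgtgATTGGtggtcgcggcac
Herpud1, ERSE-II, 52 to 42 bases before the start, chr8:94386365-94386399, plus strand: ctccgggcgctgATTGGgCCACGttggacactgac

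**Figure D1:**
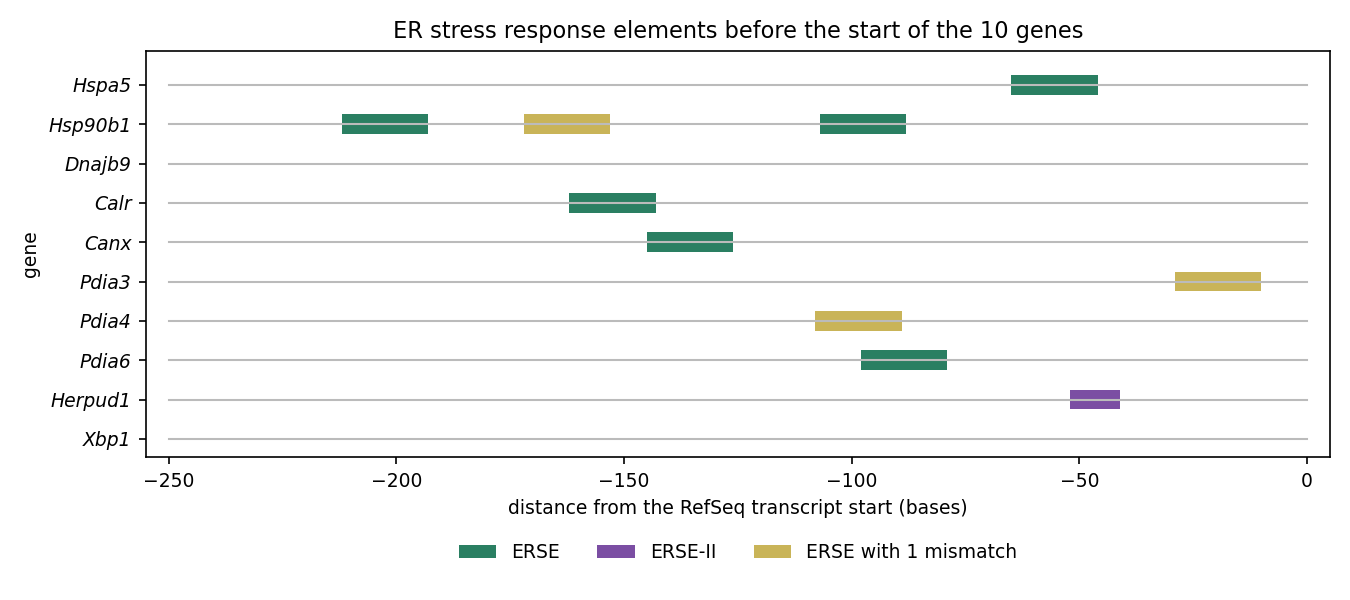
Positions of the ER stress response elements in the promoters of the 10 genes. The x axis is the distance in bases from the RefSeq transcript start, each grey line is the 250-base window of a gene, and boxes are exact ERSE (green), ERSE-II (purple) and ERSE with 1 mismatch (yellow); *Dnajb9* and *Xbp1* have no box.

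The deposited values are normalized counts, in which the reads of a library are scaled by its size factor, and they summed to between 20705058 and 20865998 per library. Differences are given as mutant minus control on the scale of log2(normalized count + 1), with 95% intervals from limma over the 17168 genes tested. *Rptor* itself was at 2126, 2193 and 2279 in the control group and at 2023, 2137 and 2148 in the mutant group (log2 difference -0.06, standard error 0.05, limma adjusted p = 0.584), and its groups overlapped. *Nkx2-1*, which marks lung epithelium, was at 2060 to 2686 in control pools and at 1977 to 2061 in mutant pools, so the lung label held in every pool. Fewer cells of a type and less RNA per cell cannot be told apart in whole lungs, and a level in the epithelium cannot be told apart from one in the surrounding tissue.

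None of the 10 genes reached an adjusted p under 0.05, where 0.501% of all tested genes did (86 genes, 0.186% higher and 0.315% lower). At an unadjusted p under 0.05, *Dnajb9* was higher and *Pdia4* and *Canx* were lower in mutant pools, 3 of 10, against 13.6% of all genes. This count fell to 1 without the trend and on leaving out any 1 mutant pool. The same 3 genes were those whose groups did not overlap, against 20.2% of all genes. Of the 10, 5 had a higher and 5 a lower mean in mutant pools, with a median log2 difference of -0.0030 beside -0.0021 over all tested genes. Their median absolute difference was 0.04, beside 0.10 over all tested genes. Over the 7673 genes whose mean of both groups reached the control mean of *Dnajb9*, the lowest of the 10, the corresponding median was 0.06. The 95% intervals of 9 of the 10 genes lay between -0.22 and 0.13 (-14.2% to 9.50%), and that of *Dnajb9* had an upper bound of 0.40 (31.6%). Summed, the 10 genes took 0.508% to 0.519% of the normalized counts of a control library and 0.497% to 0.515% of a mutant library.

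**Figure D2:**
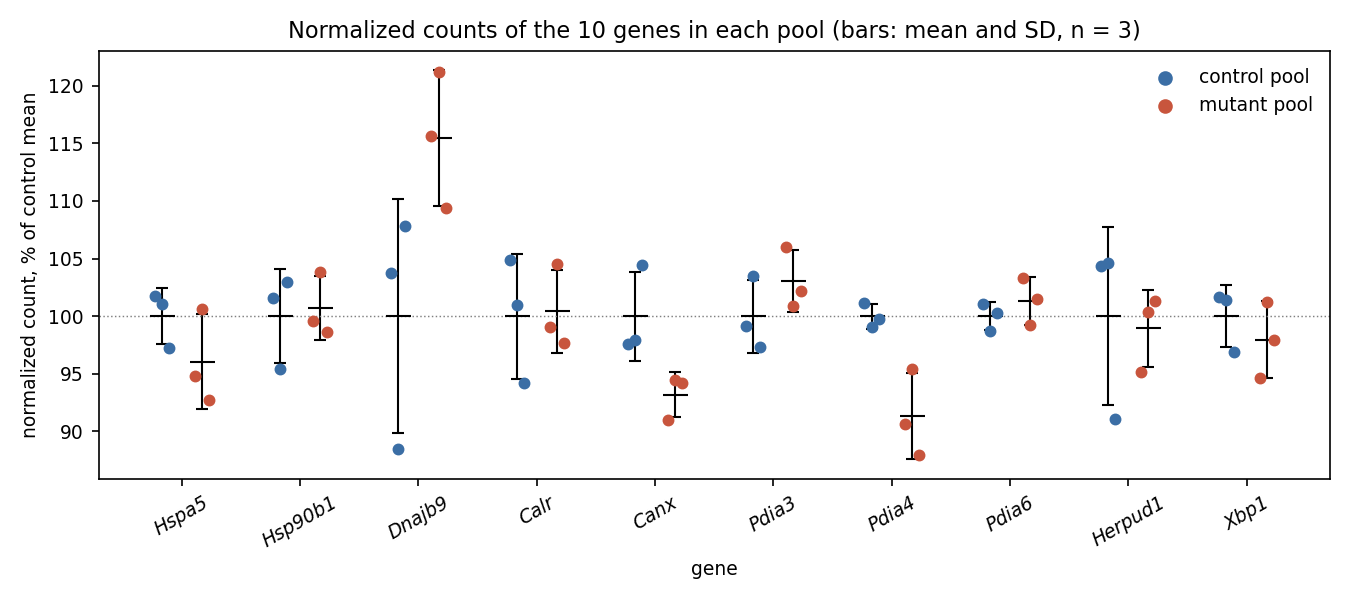
Normalized counts of the 10 genes in each pool, as a percentage of the control mean of the gene (y axis), by gene (x axis), with the mean and SD of 3 control (blue) and 3 mutant pools (red). The mutant points lie above all control points for *Dnajb9* and below them for *Canx* and *Pdia4*, and the groups overlap for the other 7 genes.

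Among the Hsp70 and Hsp90 chaperones, *Hspa5* encodes BiP, the Hsp70 of the ER and the usual readout of ER stress. Its normalized counts were 17626, 17503 and 16836 in the control pools, against 16418, 17431 and 16062 in the mutant pools. The groups overlapped through mutant pool 2, and the log2 difference of -0.06 had a 95% interval of -0.15 to 0.03 (limma adjusted p = 0.583). *Hsp90b1*, which encodes GRP94, the Hsp90 of the ER, was at 21561, 20241 and 21854 in the control group and at 21138, 22035 and 20924 in the mutant group. Both the lowest and the highest counts came from pool 2 of a group, and the difference was 0.01 (interval -0.08 to 0.10, limma adjusted p = 0.940). An antisense pseudogene, *1810014B01Rik*, overlaps *Hsp90b1*, and reads of the pair cannot be told apart without strand. The highest normalized count listed for the pseudogene was 124, and reads over the shared bases were not counted apart.

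*Dnajb9* encodes ERdj4, a J-domain cochaperone that works with BiP and holds IRE1 inactive. Its normalized counts were 546, 466 and 568 in the control pools, against 609, 638 and 576 in the mutant pools. Every mutant pool lay above every control pool, though mutant pool 3 exceeded control pool 3 only narrowly. The mean was 527 ± 53.6 (SD, n = 3) in control and 608 ± 31.1 (SD, n = 3) in mutant pools, 15.4% higher, with a log2 difference of 0.21 (standard error 0.08, interval 0.02 to 0.40, limma unadjusted p = 0.0301, adjusted p = 0.305). Control pool 2 carried much of this, since without it the difference was 0.13 (limma unadjusted p = 0.117). The unadjusted limma p was 0.0709 without mutant pool 1 and 0.105 without mutant pool 2. *Dnajb9* also had the widest relative spread of the 10, with a coefficient of variation (CV) of 10.2% in control pools where counting alone gives 4.20%.

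The relatives of these chaperones showed no common direction. *Hyou1*, an Hsp70 of the ER lumen that acts as a nucleotide exchange factor for BiP, was at 5024, 4931 and 4988 in the control group and at 4089, 4577 and 4160 in the mutant group. No mutant pool reached the lowest control pool, and the mean differed by -14.2% (log2 difference -0.22, interval -0.33 to -0.12, limma unadjusted p = 0.000827, adjusted p = 0.0844), and over the alternatives the adjusted p ranged from 0.00348 (DESeq2) to 0.406, with 0.0263 in limma without control pool 3. *Hspa13*, another Hsp70-like protein of microsomes, had means of 1412 ± 34.4 and 1512 ± 43.9 (SD, n = 3 each), a difference of 0.10 in the opposite direction (limma adjusted p = 0.394). Of the 11 cochaperones and exchange factors, which include *Dnajb9*, none passed the adjusted threshold, and 1 was higher and 3 were lower at an unadjusted p under 0.05, beside 6.67% and 6.89% of all tested genes. *Creld2*, an ER-resident protein induced by ER stress, had means of 896 ± 16.2 and 780 ± 44.3 (limma log2 difference -0.20, adjusted p = 0.176), and *Manf*, a secreted and ER-resident partner of BiP, had means of 2268 ± 38.3 and 2089 ± 73.9 (-0.12, adjusted p = 0.265). Both had mutant pools below all control pools.

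The lectin chaperones hold glycoproteins that carry a single glucose. *Calr*, which encodes the soluble calreticulin, was at 22246, 21407 and 19976 in the control group and at 21014, 22169 and 20708 in the mutant group. The mutant values lay within the control range, with a log2 difference of 0.0068 (interval -0.10 to 0.11, limma adjusted p = 0.966). *Canx*, which encodes the membrane-bound calnexin, was at 10657, 10699 and 11410 in the control group and at 9934, 10314 and 10284 in the mutant group. Here the groups did not overlap, with control pool 3 the highest, and the mean differed by -6.82% (log2 difference -0.10, interval -0.19 to -0.01, limma unadjusted p = 0.0304, adjusted p = 0.306). Leaving out control pool 3 or any mutant pool took the unadjusted limma p of *Canx* above the threshold, to between 0.0507 and 0.114.

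Enzymes that trim and re-add that glucose were measured beside them. *Uggt1*, which encodes the glucosyltransferase that tags misfolded glycoproteins for another round of lectin binding, was at 3251, 3442 and 3156 in the control group and at 2907, 2960 and 2949 in the mutant group. *Ganab*, the catalytic subunit of glucosidase II, was at 8104, 8161 and 7729 in the control group and at 7300, 7130 and 7491 in the mutant group. For both, all mutant pools were lower, with a mean difference of -10.5% for *Uggt1* (log2 difference -0.16, limma adjusted p = 0.151) and of -8.64% for *Ganab* (-0.13, limma adjusted p = 0.185). Without control pool 3, the limma adjusted p was 0.0273 for *Uggt1* and 0.0330 for *Ganab*, while over the alternatives it ranged from 0.0162 to 0.459 and from 0.00911 to 0.430. Of the 7 genes of this role, none passed the adjusted threshold, 3 were lower and none was higher at an unadjusted p under 0.05, beside 6.89% and 6.67% of all tested genes, and the median log2 difference was -0.08.

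The protein disulfide isomerases form and rearrange disulfide bonds. *Pdia3* encodes ERp57, which works with calnexin and calreticulin, and was at 15780, 16465 and 15486 in the control group and at 16871, 16053 and 16254 in the mutant group. Its groups overlapped, with a log2 difference of 0.04 (interval -0.04 to 0.13, limma adjusted p = 0.680). *Pdia6*, which encodes P5, was at 9120, 8907 and 9047 in the control group and at 9323, 8954 and 9156 in the mutant group. Its difference of 0.02 had an interval of -0.06 to 0.10 (limma adjusted p = 0.865).

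*Pdia4* encodes ERp72 and stood apart from both. Its normalized counts were 6526, 6390 and 6436 in the control pools, against 5847, 6152 and 5675 in the mutant pools. No pool crossed into the other group, and the control pools were the tightest of any of the 10 genes, with a CV of 1.07%, against 4.10% in mutant pools. The mean was 6451 ± 69.3 (SD, n = 3) in control and 5891 ± 242 (SD, n = 3) in mutant pools (-8.67%), with a log2 difference of -0.13 (standard error 0.04, interval -0.22 to -0.04, limma unadjusted p = 0.00864, adjusted p = 0.192). Under every alternative run, the difference stayed between -0.16 and -0.10, and the adjusted p between 0.0839 and 0.549, and without mutant pool 3 the unadjusted limma p was 0.0543.

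The wider family of 16 disulfide isomerases and oxidation enzymes, the 3 above included, held no gene past the adjusted threshold and a median log2 difference of -0.01. *Txndc12*, the small isomerase ERp18, had means of 1693 ± 35.4 and 1846 ± 41.1 (SD, n = 3 each; limma log2 difference 0.12, adjusted p = 0.241) with no overlap, and *Txndc11* had means of 840 ± 12.5 and 792 ± 39.4 (-0.09, adjusted p = 0.548) with overlap. Among the 4 prolyl isomerases, which speed the turning of proline bonds and matter for collagen folding, *Fkbp7* came nearest to the threshold of all genes of the pathway. Its normalized counts were 367, 388 and 339 in the control pools, against 483, 473 and 465 in the mutant pools. The groups were far apart relative to their spread, with a mutant mean 29.8% higher (log2 difference 0.38, interval 0.21 to 0.54, limma adjusted p = 0.0661). Without control pool 3 and without control pool 2 its limma adjusted p was 0.0327 and 0.0452, and over the alternatives it ranged from 0.0293 to 0.309. *Ppib*, which encodes cyclophilin B, had means of 2174 ± 36.9 and 2332 ± 75.5 (0.10, limma adjusted p = 0.340).

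*Herpud1* stands for ER-associated degradation, since its protein organises the membrane complex that returns misfolded proteins to the cytosol. Its normalized counts were 1132, 1134 and 988 in the control pools, against 1032, 1088 and 1099 in the mutant pools. The mutant pools lay inside the control range, and the log2 difference of -0.01 had an interval of -0.16 to 0.13 (limma adjusted p = 0.950). Of the 20 genes of this role, none passed the adjusted threshold, and 1 was higher and 1 lower at an unadjusted p under 0.05, beside 6.67% and 6.89% of all tested genes. *Erlec1*, a lectin that recognises trimmed glycans on substrates of degradation, was at 557, 566 and 602 in the control group and at 688, 682 and 671 in the mutant group. All mutant pools were higher (log2 difference 0.24, limma adjusted p = 0.124, and 0.0294 without control pool 3, in a range of 0.0262 to 0.413 over the alternatives). *Edem1*, which acts on the mannose residues of such glycans, had means of 1300 ± 132 and 1133 ± 55.9 (SD, n = 3 each; -0.19, limma adjusted p = 0.273), with mutant pools below all control pools.

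*Xbp1*, the transcription factor downstream of IRE1, was at 2691, 2686 and 2566 in the control group and at 2506, 2682 and 2594 in the mutant group. These values overlapped, with a log2 difference of -0.03 (interval -0.13 to 0.07, limma adjusted p = 0.815). The count covers the gene as a whole, so the spliced and unspliced forms, whose ratio is the readout of IRE1, could not be separated. Among the 12 tested sensors and transcription factors, no gene passed the adjusted threshold. *Creb3l1*, which encodes the ATF6-related factor OASIS, was at 887, 1138 and 717 in the control group and at 1115, 1323 and 1198 in the mutant group. Its groups overlapped through control pool 2 (log2 difference 0.43, limma adjusted p = 0.203). This value rested on single pools, since the difference was 0.60 without control pool 2 (limma adjusted p = 0.0332) and 0.27 without control pool 3 (limma adjusted p = 0.154), and the adjusted p ranged from 0.0332 to 0.50 over the alternatives.

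The PERK branch gave values in both directions. *Atf4*, whose mRNA is translated when PERK is active and which mTORC1 is also known to regulate, had means of 3744 ± 156 and 3423 ± 126 (SD, n = 3 each; limma log2 difference -0.13, adjusted p = 0.249). Its target *Asns*, asparagine synthetase, was at 1026, 1032 and 1142 in the control group and at 843, 956 and 840 in the mutant group. All mutant pools of *Asns* were lower, with a mean difference of -17.5% (log2 difference -0.28, limma adjusted p = 0.124). *Ddit4*, a stress-induced inhibitor of mTORC1, had means of 1063 ± 3.47 and 1231 ± 89.1 (SD, n = 3 each; 0.21, limma adjusted p = 0.164), with all mutant pools higher. Of the 8 genes of this branch, 2 were higher and 1 was lower at an unadjusted p under 0.05, beside 6.67% and 6.89% of all tested genes. The widest interval of the whole pathway belonged to *Nupr1*, singled out after its values were seen, with normalized counts of 3.98 to 11.8 in control and 10.2 to 25.5 in mutant pools (log2 difference 1.19, interval 0.18 to 2.20, limma adjusted p = 0.282).

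Genes of protein entry and glycosylation had small differences. Of 19 genes of the translocon, signal peptidase and oligosaccharyl transferase, none passed either threshold, and all log2 differences lay between -0.08 and 0.09. *Sec61a1*, the pore of the translocon, had means of 5396 ± 138 and 5097 ± 37.5 (limma log2 difference -0.08, adjusted p = 0.371), and *Spcs3*, a signal peptidase subunit, had means of 2143 ± 74.4 and 2266 ± 34.6 (0.08, adjusted p = 0.448). Over all 9 roles, 101 of 102 listed genes were tested, none passed the adjusted threshold, and 8 were higher and 11 lower at an unadjusted p under 0.05, beside 6.67% and 6.89% of all tested genes. The groups did not overlap for 11 genes that were above and 14 that were below in mutant pools, beside 9.77% and 10.5% of all tested genes. In edgeR on the recovered reads of 5 libraries, where 3.68% of genes were called, 6 of the pathway were, with *Erlec1* and *Fkbp7* higher and *Atf4*, *Ganab*, *Hyou1* and *Uggt1* lower, and none of the 10.

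**Figure D3:**
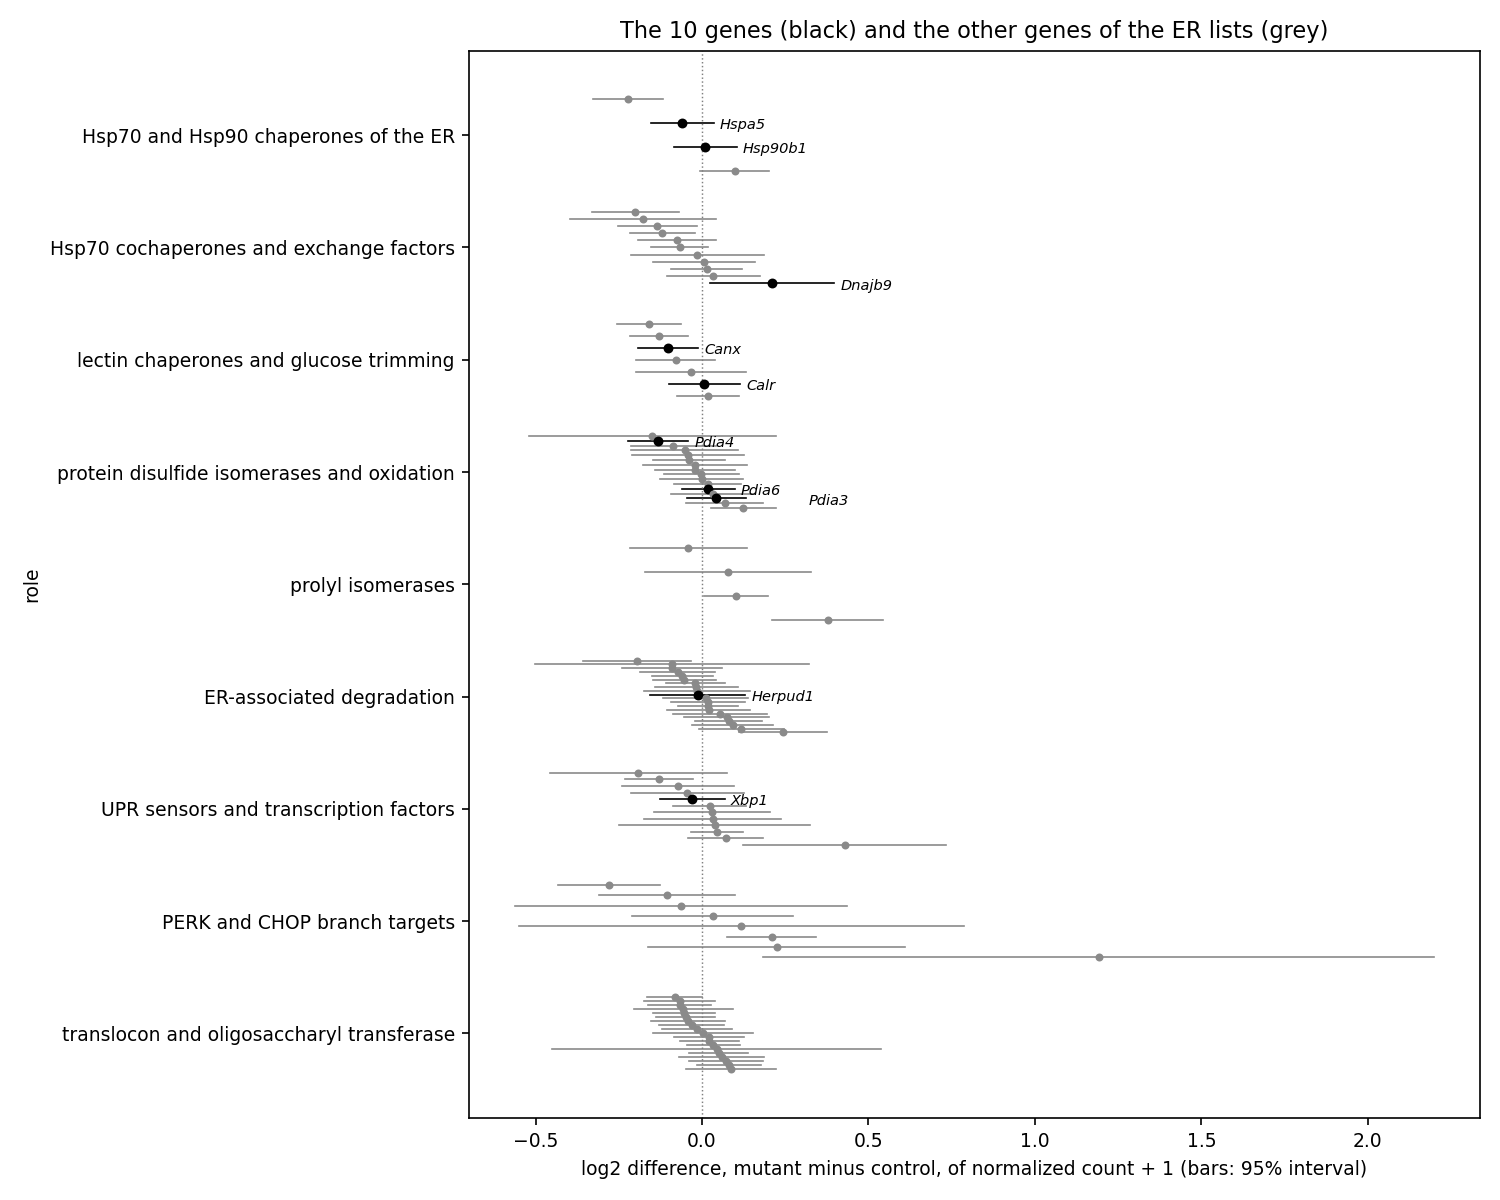
Log2 differences, mutant minus control (x axis), of the 101 tested genes by role (y axis), with 95% intervals. The 10 genes are black and named, and other genes are grey; the grey point farthest to the right is *Nupr1* at 1.19, and the top grey point is *Hyou1* at -0.22.

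Levels were compared between genes on a scale of normalized counts per length of exon, with all annotated exons of a gene joined as its length. The order and the span depend on that length, and the length of the mRNA in these lungs was not measured. On that scale, *Calr* had the highest level in control pools, with 7364 ± 399 normalized counts per kb (SD, n = 3), followed by *Hsp90b1* (5263 ± 213), *Pdia3* (5069 ± 160) and *Hspa5* (4096 ± 100.5). *Pdia4* (2689 ± 28.9), *Pdia6* (2410 ± 28.9) and *Canx* (2327 ± 90.1) formed a middle tier, and *Xbp1* (815 ± 21.7), *Herpud1* (465 ± 35.9) and *Dnajb9* (207 ± 21.0) were lowest. The span from first to last was 35.6-fold. The neighbours *Hsp90b1* and *Pdia3* overlapped in both groups of pools, *Pdia6* and *Canx* overlapped in control pools only, and *Pdia4* and *Pdia6* in mutant pools only. The order of the means was the same in both groups. Of the 10 genes, 3 were among the 100 genes with the highest mean normalized counts.

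**Figure D4:**
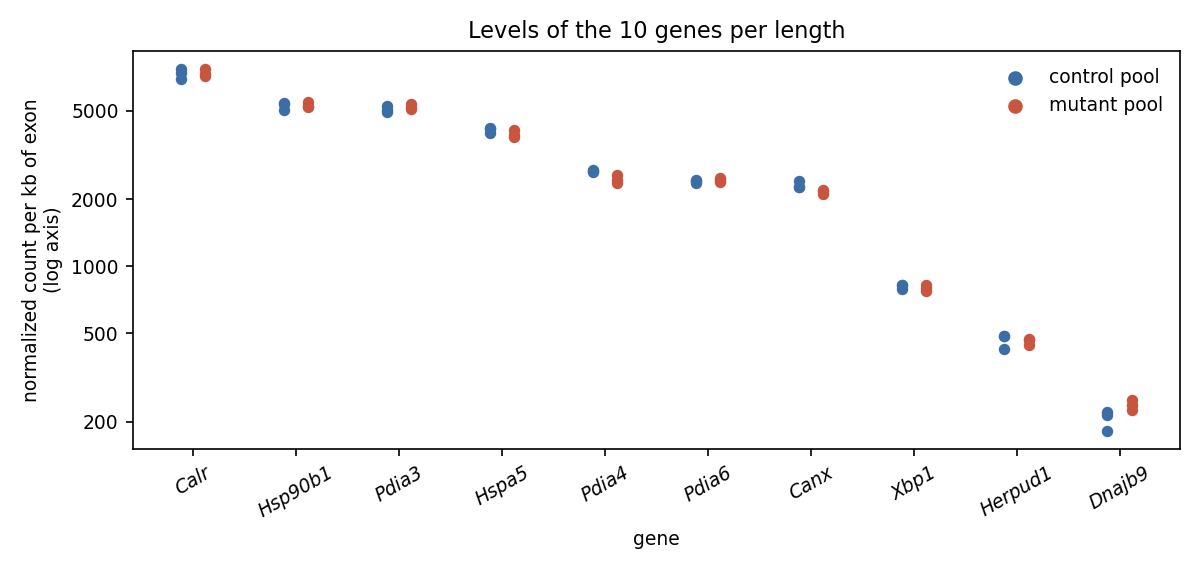
Normalized counts per kb of exon (y axis, log scale) of the 10 genes in each control (blue) and mutant pool (red), in the order of the control means (x axis). The levels run from *Calr* at about 7364 to *Dnajb9* at about 207 in control pools, with the same order in mutant pools.

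The pools differed little in the average of the 10 genes. The mean deviation of the 10 from their averages over the 6 pools was 0.03, -0.01 and -0.0098 (log2) for the control group, against -0.02, 0.03 and -0.02 for the mutant group. The pool with the highest mean was mutant pool 2, in which *Hspa5*, *Hsp90b1*, *Dnajb9*, *Calr*, *Canx*, *Pdia4* and *Xbp1* each had the highest of the mutant values. Between partners, the log2 ratio of *Dnajb9* to *Hspa5* was -5.01, -5.23 and -4.89 for the control group, against -4.75, -4.77 and -4.80 for the mutant group. The ratio of *Pdia4* to *Pdia6* was -0.48, -0.48 and -0.49 in the control group and -0.67, -0.54 and -0.69 in the mutant group, and that of *Hyou1* to *Hspa5* was -1.81, -1.83 and -1.76 against -2.01, -1.93 and -1.95. These 3 pairs were chosen after the values were seen, as pairs whose groups do not overlap, and carry no test. The ratio of *Pdia3* to *Pdia4*, also untested, did not overlap either, at 1.27 to 1.37 in control and 1.38 to 1.53 in mutant pools. The ratio of *Hsp90b1* to *Hspa5* overlapped between the groups, at 0.21 to 0.38 in control pools and 0.34 to 0.38 in mutant pools, and so did that of *Canx* to *Calr*, at -1.06 to -0.81 and -1.10 to -1.01.

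Genes with and without the printed elements were set side by side as a description. Pathway genes without a promoter entry, among them *Hyou1*, *Manf*, *Creb3l1* and *Erlec1*, were not searched and are on neither side. Of the 10 tested genes of the pathway with an exact ERSE, 5 of them from the set, 7 were lower and 3 higher in mutant pools, with a median log2 difference of -0.09, while the 76 with a promoter and no exact ERSE divided 38 to 38, with a median of 0.00076. The 5 outside the set, *Creld2*, *Derl3*, *Dnajc3*, *Ero1lb* and *Syvn1*, were all lower in limma on 6 libraries, with a median of -0.13, and 2 of them at an unadjusted p under 0.05, beside 6.89% of all tested genes. Without control pool 3, only 3 of these 5 were lower, with a median of -0.03, and in edgeR on 5 libraries *Ero1lb* was at 0.02. The median of the 10 was -0.03 without control pool 3. Over all 19 tested genes with an exact ERSE in the window, 12 were lower and 7 higher, with a median of -0.06. Within the set the directions were mixed. With an exact element, *Hspa5* and *Canx* had lower means, and *Hsp90b1*, *Calr* and *Pdia6* had higher means. With 1 base off, *Pdia4* was lower and *Pdia3* higher. With no match in the window searched, *Dnajb9* was higher and *Xbp1* lower.

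Chaperones outside the ER and markers of cell types were measured beside these genes. Of 14 cytosolic and mitochondrial chaperones, 13 had lower means in mutant pools, beside 50.5% of all tested genes, and none passed the adjusted threshold. Leaving out control pool 2 left 9 of 14 lower. At an unadjusted p under 0.05, 5 were lower, beside 6.89% of all tested genes, and their summed normalized count was 181891 to 193935 in control pools and 171853 to 180071 in mutant pools. *Hsph1*, a cytosolic nucleotide exchange factor of the Hsp70 system, was at 3544, 3430 and 3621 in the control group and at 3098, 3157 and 3073 in the mutant group (log2 difference -0.18, limma adjusted p = 0.0844, and 0.0368 without control pool 3, in a range of 0.0239 to 0.405 over the alternatives). Of 20 epithelial markers, 19 had lower means and 7 fell at the adjusted threshold (*Cdh1*, *Cldn4*, *Cldn6*, *Grhl2*, *Krt8*, *Krt18* and *Spint1*). These calls depended on the libraries and the fit. No epithelial marker was called lower without control pool 1, without mutant pool 3 or without the trend. Calls over all genes also fell in those settings. Without mutant pool 1, 1 marker was called lower, with 2 without mutant pool 2 and 14 without control pool 3. Means were lower for 18 of 19 tested markers without control pool 1, and for 19 of 20 without mutant pool 3 or the trend. The marker with a higher mean was *Krt19*, which is also on the mesothelial list. The summed normalized count of the epithelial markers was 18537 to 22279 in control pools and 14572 to 15841 in mutant pools. Of 12 mesenchymal markers, all 12 had higher means and 4 rose at the adjusted threshold (*Col1a1*, *Col1a2*, *Col3a1* and *Fgf10*; none without control pool 1, mutant pool 3 or the trend, and 1 without mutant pool 1 or 2), with a sum of 110528 to 117251 in control pools and 133498 to 140786 in mutant pools.

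Of 6 mesothelial markers, *Wt1* rose at the adjusted threshold (limma adjusted p = 0.0496), and the sum was 3947 to 4588 in control and 4720 to 5223 in mutant pools. The call of *Wt1* was lost without control pool 1, without any 1 mutant pool and without the trend. It was also lost with a minimum of 10 in each library, no filter, a pseudocount of 0.1 or a replicate block. No endothelial marker of 8 passed, with *Tie1* nearest and a sum of 12773 to 14581 against 14924 to 15465, and no cardiac marker of 7, with *Myh6* nearest and a sum of 972 to 1098 against 703 to 824. None of 8 macrophage markers (*Fcer1g* nearest, 1992 to 2983 against 2705 to 2849), 6 neural markers (1847 to 1983 against 1536 to 2015) or 5 tested erythroid markers (*Hbb-y* nearest, 96131 to 124035 against 95354 to 118693, with 2 markers at 0) passed, and these sums overlapped. Beside these shifts, the sum of the 10 ER genes was 105166 to 107886 in control pools and 103333 to 107517 in mutant pools, a mean difference of -1.07%, whereas the epithelial sum differed by -25.3% and the mesenchymal sum by 21.0%. The part of cell composition in the values of the ER genes was not tested.

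**Figure D5:**
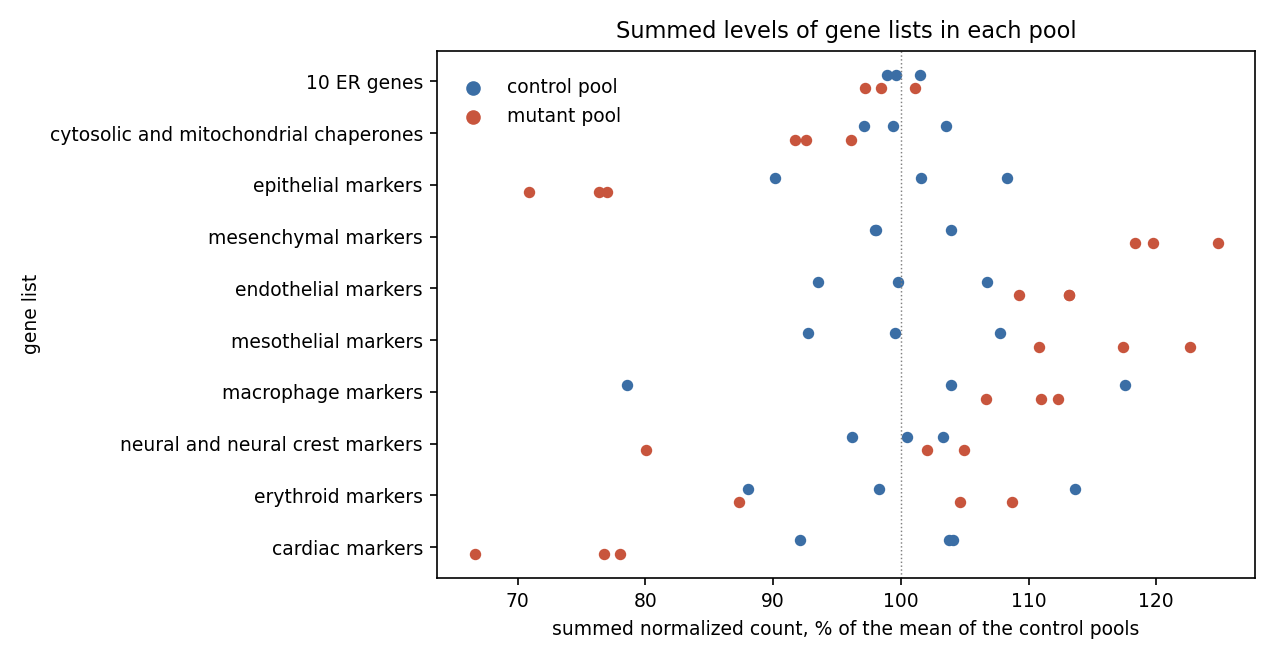
Summed normalized counts of each gene list in each pool, as a percentage of the mean of the control pools (x axis), by list (y axis), with control pools in blue and mutant pools in red. The 10 ER genes overlap between the groups, as do macrophage, neural and erythroid markers. Epithelial and cardiac markers and cytosolic and mitochondrial chaperones lie lower in every mutant pool than in any control pool. Mesenchymal, endothelial and mesothelial markers lie higher in every mutant pool.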

How the data were processed

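RNA-Seq of 3 control and 3 mutant pools of whole lungs (E11.5dpc, BGISEQ-500) was analysed from the 1 deposited table. The submitters' processing notes name Trim Galore, HISAT2, featureCounts, DESeq2 and mm10, without versions or strand setting. The authors deposited signal values in the form of normalized counts, made from reads with a size factor for each library. The deposited p-values, log2 fold changes with errors, and score of the test belong to the authors' own comparison and were not used. The symbols of 27 genes had become dates and were left so. All 10 genes and the lists of the wider pathway, other chaperones and markers were chosen with earlier results of these data known.

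Values were compared with limma 3.58.1 in R 4.3.3 (lmFit, eBayes with trend) on log2(normalized count + 1), for genes that reached 1 in 3 or more libraries. P-values were adjusted by Benjamini and Hochberg, with a threshold of 0.05. A fold change on this scale understates that of low genes. In all 6 libraries 100% of values were whole multiples of a step (within 0.05 reads). Control pool 3 was kept out of the fits on reads by a cutoff on how near its step lay to 1 (size factor 1.006). Its values were whole multiples as well, so this was a choice. Thus edgeR 4.0.16 and DESeq2 1.42.0 ran on the recovered reads of the other 5 (20197642 to 21276090 reads), and edgeR called 545 genes. The other alternatives were no trend, upper-quartile (75th percentile) or total scaling, no filter, a minimum of 10 in each library, a replicate block, a pseudocount of 0.1 and leaving out each pool. The fit was tested on simulated data.

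Besides the 10 genes, those named are pathway genes with an adjusted p under 0.05, the 2 others of lowest p in each of 9 roles and, of each other list, genes with an adjusted p under 0.05 or else the 1 of lowest p. Exceptions are *Nupr1*, *Nkx2-1*, *Krt19* and the 5 genes outside the set with an ERSE, chosen after their values or promoters were seen, and 1 gene that the rule names is not reported here. Exon lengths are unions over GENCODE M21. Of the 10 genes, 6 overlap another annotated gene. The 4 such genes that the table lists reached normalized counts of at most 124, and the others, which include those over *Dnajb9* and *Herpud1*, have no value here. Same-numbered pools hold different embryos, and p-values measure the spread between pools.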

Additional observations from a re-analysis of the deposited data

How the results depend on the processing

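None of the 10 genes passed the adjusted threshold under any of 15 alternatives. Over all genes, limma without the trend called 8, edgeR 545 and DESeq2 404 genes, and leaving out 1 pool gave 1 to 468 calls (468 without control pool 3, 147 without control pool 2, and 1 without control pool 1 or mutant pool 3). In the wider pathway, edgeR called 6 genes, DESeq2 3, and leaving out 1 pool 0 to 5, with 5 without control pool 3. The edgeR and DESeq2 fits also leave out control pool 3.

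The median log2 difference of the 10 was -0.0449 in edgeR, -0.0437 in DESeq2 and -0.0440 to 0.0207 with 1 pool left out, and that of the pathway was -0.020 in edgeR, -0.020 in DESeq2 and -0.0188 to 0.00697 with 1 pool left out. Among the 10, the sign changed for 3 genes. *Calr* was at -0.0368 in edgeR and -0.0356 in DESeq2, and with 1 pool left out at -0.0358 (control pool 3) to 0.0419 (control pool 1). With 1 pool left out, *Hsp90b1* was at -0.0232 (control pool 2) to 0.0321 (control pool 3) and *Herpud1* at -0.0786 (control pool 3) to 0.0209 (control pool 2). The cause was not tested. With the replicate block, 71 genes were called, none of them among the 10 or the pathway. The log2 deviations of pools from their group mean were correlated over 11458 genes. The correlation was -0.03, 0.20 and 0.08 for same-numbered pools, and -0.17 to 0.13 for a control and a mutant pool of different number. The numbers were not taken as pairs. Counting error alone gives the 10 genes a CV of 0.685% to 4.20%, and their CV was 1.07% to 10.2% between control pools and 2.02% to 5.11% between mutant pools.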
